A study of Mus musculus with 4 samples.

Results

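A set of 10 genes of alternative activation and type 2 cytokine signalling was followed across lung ECs taken after PNX (removal of the left lung) and after a sham operation. They are Arg1, Retnla, Chil3 and Rnase2a, which mark alternative activation of macrophages or related type 2 immune cells; the receptor chains Il4ra, Il13ra1 and Il13ra2; the alarmin Il33 and its receptor Il1rl1; and the signalling inhibitor Socs2. They were taken by symbol, each with its transcript of most counts over the 4 libraries, and are 10 of the 24063 gene symbols in the tables. They were picked with their PNX against sham values known, so their differences are given as descriptions without a test. The ECs came from C57BL6 mice (C57BL6J in the study's methods) of 8 weeks and were selected with magnetic beads carrying an antibody to CD31. In the sham group the chest was opened and no lung was removed. PNX mice were sampled 7 days after surgery, and each group had 2 libraries, each pooled from 2 mice. Nothing beyond the operation differed between the groups according to the labels, and the day on which sham mice were sampled is not given separately.

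Type 2 immunity is the arm of the immune response that acts against worms, in allergy and in wound repair. IL-4 and IL-13 bind receptors built from the IL-4 receptor alpha chain with the common gamma chain or with IL-13 receptor alpha 1, and the kinases of the JAK family then activate the transcription factor STAT6. IL-33 is stored in the nucleus of endothelial, epithelial and stromal cells and, once released, acts through ST2, the product of Il1rl1, on group 2 innate lymphoid cells, mast cells and eosinophils. In mouse macrophages that respond to IL-4 or IL-13, Arg1, Retnla and Chil3 are the usual markers. Chil3 is also made at a high level by resting alveolar macrophages.

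The labelled cell type was checked first. Pecam1, which encodes CD31, lay between 925 and 955 TPM (a level scaled to transcript length and library total, as deposited) in the 4 libraries, and Cdh5 between 799 and 962 TPM. Ptprc, which encodes the leukocyte protein CD45, lay between 69.5 and 72.3 TPM, so RNA of this gene was present in every library. In mean normalized counts, Sftpc, listed as an alveolar type 2 marker, had 171015 in sham and 111027 after PNX. Lyz2, listed as a macrophage marker, had 144686 and 166745. Pecam1 had 90946 and 90400, and Cdh5 had 110259 and 94599. Levels given for ECs are thus those of the whole selected preparation. The study's methods state that the isolated ECs were checked by flow cytometry as positive for CD31 and VE-cadherin and negative for CD45. In bulk RNA of this kind, fewer cells of a type and less RNA per cell cannot be told apart. The mice were described as male, but 0 counts fell on any of 44 listed chromosome Y genes, and Xist had 31872 to 33792 normalized counts in every library; since this held for both groups, no library was set aside. Counts on the chosen transcripts came to between 41367438 and 50952879 per library, and 3 counts, the floor used here, corresponded to between 0.0589 and 0.0725 CPM. Floors and intervals cover counting error only. Genes were called where they differed by more than 1 on the log2 scale with an adjusted p below 0.01 (edgeR's quasi-likelihood test over 16208 genes). By this rule 7.56% of the genes tested were called, 957 of them higher after PNX (5.9%) and 269 lower (1.66%), and 57.1% passed by adjusted p alone.

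Promoter sequences are shown for members that were higher after PNX, and for Il33, which shared a STAT-type motif with 1 of them. Each is the stretch of 250 bases before the start site, 5′ to 3′ on the strand of the gene, from RefSeq's annotation of GRCm38.p6, the assembly called mm10. The promoter table matched 8 of the 10 members, and Arg1 and Socs2 were not matched. Capitals mark the motif TTCNNNNGAA, the spacing preferred by STAT6, or TTCNNNGAA, the spacing of other STAT proteins such as STAT5; both read the same on either strand.
Retnla, chr16:48842359-48842608, plus strand: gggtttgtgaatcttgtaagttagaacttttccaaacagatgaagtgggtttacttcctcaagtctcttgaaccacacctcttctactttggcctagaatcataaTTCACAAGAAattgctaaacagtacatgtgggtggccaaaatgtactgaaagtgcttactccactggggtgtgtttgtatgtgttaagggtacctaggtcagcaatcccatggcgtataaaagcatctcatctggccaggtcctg
Chil3, chr3:106167565-106167814, minus strand: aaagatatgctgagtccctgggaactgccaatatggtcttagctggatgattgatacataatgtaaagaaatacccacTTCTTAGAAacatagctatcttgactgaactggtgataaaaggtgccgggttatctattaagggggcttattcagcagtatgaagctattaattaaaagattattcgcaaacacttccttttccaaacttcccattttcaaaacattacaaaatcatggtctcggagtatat
Rnase2a, chr14:51256113-51256362, minus strand: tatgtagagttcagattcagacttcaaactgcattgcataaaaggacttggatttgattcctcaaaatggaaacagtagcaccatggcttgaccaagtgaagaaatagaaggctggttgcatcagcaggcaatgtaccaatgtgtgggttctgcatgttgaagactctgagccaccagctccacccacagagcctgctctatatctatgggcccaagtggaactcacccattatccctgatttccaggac
Il33, first of its 2 start sites, chr19:29924863-29925112, plus strand: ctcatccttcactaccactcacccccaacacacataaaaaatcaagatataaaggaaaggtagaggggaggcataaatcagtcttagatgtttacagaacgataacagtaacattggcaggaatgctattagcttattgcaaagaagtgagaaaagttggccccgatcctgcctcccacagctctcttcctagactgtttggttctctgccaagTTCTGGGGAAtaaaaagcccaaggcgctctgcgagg
The Retnla stretch held 1 STAT6-type match, TTCACAAGAA, whose first base lay 145 bases before the start. The Il33 stretch held TTCTGGGGAA, 36 bases before the start. The Chil3 stretch held 1 match of the shorter spacing, TTCTTAGAA, 172 bases before the start, and the Rnase2a stretch held neither. In the same window, 5.9% of all 32851 promoters held the STAT6-type letters and 7.0% the shorter spacing. None of the other members matched by the table, Il4ra, Il13ra1, Il13ra2 and Il1rl1, held either. These matches are letters in a sequence and are not measured binding sites.

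Among the effector genes, Arg1, Retnla, Chil3 and Rnase2a were all higher in both post-PNX libraries than in both sham libraries. Of the 9 members that passed the filter on low counts, these 4 met the thresholds for a call and were higher, against 5.9% of all genes tested; nothing is read from this count, because the members were chosen on the same contrast. Normalized counts (counts after TMM, brought to a common library size equal to the mean) did not overlap between the groups in 9 of the 10 members, but neither did they in 81.2% of all genes tested.

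Arg1 encodes arginase 1, which turns arginine into ornithine and urea, and lies on chromosome 10 from 24915207 to 24927470. Sham libraries held 109 and 86 Arg1 counts, and post-PNX libraries held 10896 and 9643. After normalization these were 98.7 and 87.7 against 10707 and 10744, so the post-PNX libraries lay close together and far above sham. The log2 fold change was 6.84 (standard error 0.049), or 115-fold. On the TPM scale the level of Arg1 went from 2.19 ± 0.19 (SD, n = 2) to 246 ± 0.53 (SD, n = 2), which moved it from rank 12976 to rank 420 of all gene symbols. No stretch of 75 bases of its transcript occurred in a transcript of another gene in the GENCODE M21 set.

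Retnla encodes RELM-alpha, a small secreted protein also called Fizz1, and lies on chromosome 16 from 48842609 to 48844461. Its normalized counts were 638 and 733 in sham ECs and 3391 and 3243 in post-PNX ECs. The libraries of each group lay far closer to each other than to the other group, and the log2 fold change was 2.28 (standard error 0.045). The TPM level was 39.7 ± 3.9 (SD, n = 2) in sham and 188 ± 6.0 (SD, n = 2) after PNX. Of its relatives, Retnlg, a neutrophil gene, had 890 and 814 against 1254 and 1154 normalized counts (log2 fold change 0.50, edgeR adjusted p = 1.04e-12), short of the fold threshold, and Retnlb and Retn did not pass the filter on low counts.

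Chil3 encodes Ym1, a secreted chitinase-like lectin that has no chitinase activity, and lies on chromosome 3 from 106147554 to 106167564. It was already abundant in sham ECs, with 66525 and 66208 normalized counts, and had 190320 and 185561 after PNX. No gene had a higher mean normalized count in post-PNX ECs, whereas Chil3 ranked 45 in sham ECs. These counts are not scaled to transcript length, and by mean TPM Chil3 ranked 23 in sham and 5 after PNX. It took between 0.143% and 0.144% of the counts of a sham library and between 0.403% and 0.414% of a post-PNX library. The log2 fold change was 1.50 (standard error 0.016), the smallest of the effector genes in fold and the largest in counts gained. Chil4, which encodes the close relative Ym2, rose from 16.3 and 27.5 to 140 and 108 normalized counts (log2 fold change 2.52, standard error 0.22, edgeR adjusted p = 8.85e-16). The Chil3 transcript shared 208 of its 1465 stretches of 75 bases (14.2%) with transcripts of other genes, 125 of them with Chil4, so how reads were split between Chil3 and Chil4 is uncertain. Chil1, a more distant relative that encodes YKL-40, was lower, with 8886 and 9012 against 6989 and 7236 normalized counts (log2 fold change -0.33, edgeR adjusted p = 1.25e-19), short of the fold threshold, and under scaling to endothelial genes the difference was -0.06 (edgeR adjusted p = 0.0217).

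Rnase2a encodes Ear11, a ribonuclease of the eosinophil-associated family that attracts macrophages, and lies on chromosome 14 from 51255261 to 51256112. Sham libraries held 2 counts and 1 count, under the floor of 3 counts per library, whereas post-PNX libraries held 741 and 586. The ratio of the summed counts was 482, with a 95% counting interval of 164 to 2338. The level after PNX was 33.9 ± 2.6 TPM (SD, n = 2). Close relatives could share reads with it, but none of the 616 stretches of 75 bases in its transcript occurred unchanged in a transcript of another gene. The family did not move as one: Rnase2b rose from 10.9 and 4.08 to 60.9 and 50.1 normalized counts (log2 fold change 2.84, standard error 0.34, edgeR adjusted p = 4.81e-11). Without the first sham library the log2 fold change of Rnase2b was 3.73, and without the second it was 2.35. Ear6 rose from 37.1 and 39.8 to 88.4 and 79.1 (1.13, standard error 0.20, edgeR adjusted p = 1.94e-06). Ear1 fell from 2147 and 2116 to 1050 and 954 (log2 fold change -1.09, standard error 0.044, edgeR adjusted p = 4.60e-31), and at -0.82 fell short of the fold threshold under scaling to endothelial genes. Ear2, the most abundant of them in counts, had 6401 and 6205 against 5499 and 5325, a log2 fold change of -0.22 that became 0.05 under that scaling.

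**Figure D1:**
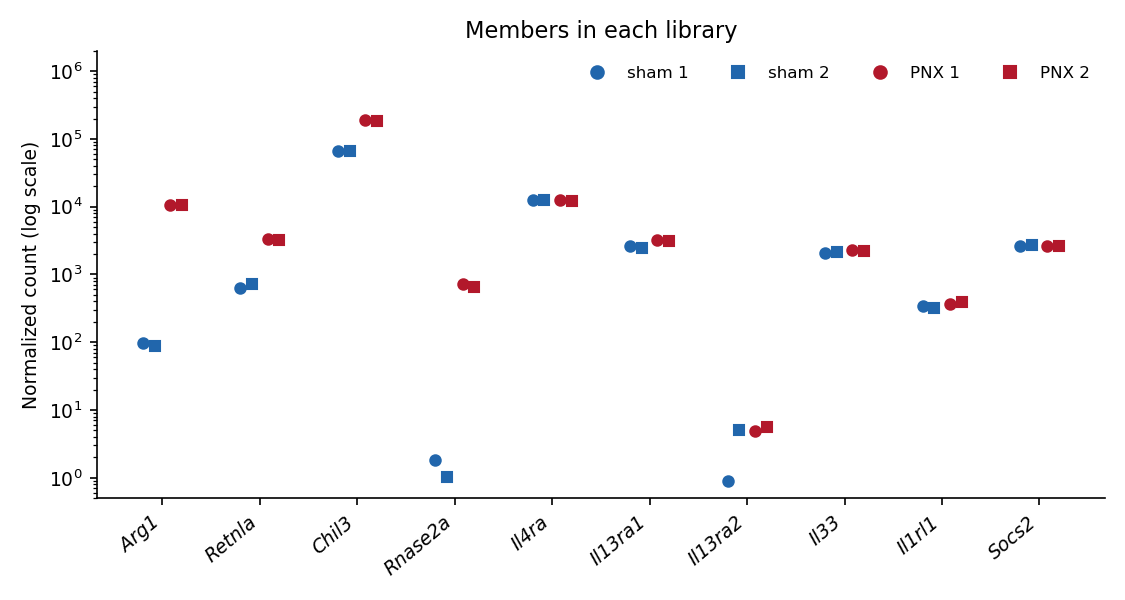
Normalized counts (log scale) of the 10 members in the 4 libraries, with blue for sham and red for PNX, circles for the first and squares for the second library of a group. Arg1, Retnla, Chil3 and Rnase2a stand apart between the groups, from 1.02 and 1.81 to 653 and 728 for Rnase2a. Il4ra, Il13ra1, Il33, Il1rl1 and Socs2 differ far less. Il13ra2, at 0.906 and 5.10 in sham and 4.91 and 5.57 after PNX, has too few counts to tell.

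Of the receptor chains, Il4ra and Il13ra1 differed far less. Il4ra, the chain shared by the IL-4 and IL-13 receptors, lies on chromosome 7 from 125552271 to 125579474 and had 12452 and 12582 normalized counts in sham ECs against 12366 and 12328 after PNX. The sham libraries lay just above the post-PNX libraries, and the log2 fold change was -0.02 (standard error 0.021), which became 0.25 under scaling to endothelial genes. At 85.2 ± 0.56 and 82.1 ± 0.20 TPM (SD, n = 2 each) it was the most abundant of the receptor chains. Il13ra1, the signalling partner of Il4ra for IL-13, lies on chromosome X from 36112108 to 36171262. It had 2595 and 2416 normalized counts in sham ECs and 3181 and 3150 after PNX, higher in both post-PNX libraries, with a log2 fold change of 0.34 (standard error 0.034), or 0.61 under scaling to endothelial genes and -0.02 under scaling to macrophage genes. Most counts of these macrophage genes were those of Lyz2, and the scaling without it is given below. The TPM level of Il13ra1 was 23.6 ± 1.2 in sham and 29.1 ± 0.21 (SD, n = 2 each) after PNX.

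Il13ra2, a receptor that binds IL-13 with high affinity and lacks a long signalling tail, lies on chromosome X from 147383478 to 147429192. Sham libraries held 1 and 5 counts and each post-PNX library 5, too few to pass the filter. The ratio of the summed counts, 10 against 6, was 1.81 with a 95% counting interval of 0.597 to 6.07, so neither a rise nor a fall was detectable at this depth. Among the partner chains in the list of other type 2 receptors, 0 of the 10 tested were called in either direction, with a median log2 fold change of 0.03 against 0.00 over all genes. By edgeR adjusted p alone 4 of them were higher and 2 lower, where 29.3% of all genes were higher and 27.8% lower by that rule. Il2rg, the common gamma chain, had 5480 and 5602 against 7094 and 6966 normalized counts (log2 fold change 0.34, edgeR adjusted p = 3.74e-19). Csf2rb, the beta chain of the IL-5 and GM-CSF receptors, had 4356 and 4403 against 5144 and 5241 (log2 fold change 0.25, edgeR adjusted p = 4.04e-12).

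Il33 and its receptor were close to level. Il33 lies on chromosome 19 from 29925113 to 29960718 and had 2099 and 2152 normalized counts in sham ECs and 2280 and 2244 after PNX. Both post-PNX libraries lay slightly above both sham libraries, by 1.06-fold on average. The log2 fold change was 0.09 (standard error 0.036), and was 0.36 under scaling to endothelial genes and -0.26 under scaling to macrophage genes. Lyz2 had most of the counts of the macrophage genes, here and for Il1rl1 below. The 2 RefSeq transcripts of Il33 had counts that differed by at most 2 in any library, so the start sites could not be told apart. Il1rl1 lies on chromosome 1 from 40404864 to 40465418. Its transcript of most counts, NM_001025602, encodes the long membrane-bound form of ST2 and had 344 and 320 normalized counts in sham ECs and 365 and 388 after PNX (log2 fold change 0.17, standard error 0.084). This became 0.45 under scaling to endothelial genes and -0.18 under scaling to macrophage genes. The short form, a soluble decoy for IL-33, is given by NM_010743. Its counts were 140 and 122 in sham and 156 and 117 in post-PNX libraries, which is 0.368 and 0.389 of the long form in sham and 0.420 and 0.336 after PNX. The ratio overlapped between the groups. Because a read on exons common to both forms was counted for each, these ratios are not shares of molecules. On the TPM scale the long form was low, at 2.17 ± 0.11 and 2.40 ± 0.10 (SD, n = 2 each).

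Socs2 encodes an inhibitor of cytokine and growth hormone receptors that is itself induced through STAT5, and lies on chromosome 10 from 95383903 to 95417321. It had 2650 and 2689 normalized counts in sham ECs against 2592 and 2643 after the resection. Its log2 fold change of -0.03 (standard error 0.033) became 0.24 under scaling to endothelial genes. Its transcript shared 300 of 2148 stretches of 75 bases (14.0%) with Gm9847. Of its relatives, Socs1, Socs3 and Cish were listed, and each differed by less than 2-fold. Socs3 had 21992 and 22712 against 16809 and 16938 normalized counts (log2 fold change -0.41, edgeR adjusted p = 1.96e-27), and Cish, a STAT5 target like Socs2, had 4370 and 4359 against 3395 and 3366 (-0.37, edgeR adjusted p = 1.36e-17). Socs1, an inhibitor of JAK kinases, had 157 and 139 against 203 and 221 (log2 fold change 0.51). In the growth hormone and STAT5 list, 1 of 8 tested genes was called, Igf1, which encodes a growth factor made by macrophages and stromal cells. It rose from 637 and 631 to 2695 and 2780 normalized counts (log2 fold change 2.11, standard error 0.045, edgeR adjusted p = 4.97e-46). Ghr, the growth hormone receptor, had a log2 fold change of -0.18, or 0.09 under scaling to endothelial genes, and Jak2 one of 0.00.

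Ordered by TPM, Chil3 was the most abundant member in sham ECs at 1495 ± 6.3 (SD, n = 2), followed by Il4ra. Socs2 at 41.7 ± 0.40 and Retnla at 39.7 ± 3.9 (SD, n = 2 each) came next and lay within the spread of Retnla, and then Il33 at 29.1 ± 0.49 and Il13ra1 at 23.6 ± 1.2. Arg1 at 2.19 and Il1rl1 at 2.17 did not differ beyond their spread, and Rnase2a and Il13ra2 were at 0.071 and 0.068. After PNX the order was Chil3 at 4136 ± 75 (SD, n = 2), Arg1 at 246, Retnla at 188, Il4ra at 82.1, Socs2 at 39.9, Rnase2a at 33.9, Il33 at 30.2 and Il13ra1 at 29.1. Il1rl1 at 2.40 and Il13ra2 at 0.116 stayed at the bottom. Arg1 thus passed 5 members, Il4ra, Socs2, Retnla, Il33 and Il13ra1, in this order.

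Of 8 listed type 2 cytokines and alarmins, members left out, 6 passed the filter and 2 were called higher, where 5.9% of all genes were. Il10, an anti-inflammatory cytokine, rose from 10.9 and 21.4 to 134 and 136 normalized counts (log2 fold change 3.08, standard error 0.23, edgeR adjusted p = 8.84e-19). Il5, the eosinophil growth factor, rose from 42.6 and 32.6 to 67.8 and 91.4 (1.06, standard error 0.21, edgeR adjusted p = 1.64e-05), and its log2 fold change fell short of the threshold without the second sham library (0.89) and without the second post-PNX library (0.84). Il13 and Il4, named after their values were seen, had 20.8 and 27.5 against 41.3 and 47.9 and 17.2 and 29.6 against 27.5 and 17.8 normalized counts. The log2 fold change of Il13 was 0.88 (edgeR adjusted p = 0.00297), short of a call. The edgeR adjusted p of Il13 was 0.0604 without the first sham library, 0.0110 without the first and 0.0529 without the second post-PNX library, and it was 0.0753 under DESeq2's Wald test. Il13 met both thresholds without the second sham library (1.09) and under scaling to endothelial genes (1.16). The log2 fold change of Il4 was 0.00 with overlapping groups, or 0.27 under scaling to endothelial genes. Areg, an epidermal growth factor receptor ligand made by group 2 innate lymphoid cells, had 358 and 386 against 597 and 628 (log2 fold change 0.72), and Tslp, an epithelial alarmin, had 194 and 125 against 217 and 234 (0.48). Il9 had 0 counts in every library.

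Downstream of the receptors, 0 of 17 tested genes of JAK, STAT and MyD88 signalling were called. Their log2 fold changes lay between -0.41 and 0.51 with a median of 0.04, and by edgeR adjusted p alone 5 were higher and 6 lower. Jak1 had 18391 and 18390 against 17030 and 17006 normalized counts, a log2 fold change of -0.11 that turned to 0.16 under scaling to endothelial genes. Stat6, named after its value was seen, had 8579 and 8522 against 7709 and 7235, a log2 fold change of -0.19 that turned to 0.08 under the same scaling.

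Of 20 tested genes of alternative activation other than the members, 7 were called higher and 0 were called lower. Over all genes tested, 5.9% were called higher. The median log2 fold change of the list was 0.49 against 0.00 over all genes. By edgeR adjusted p alone 13 were higher and 4 lower, where 29.3% of all genes were higher and 27.8% lower. The 7 included Chil4, given above with its uncertain split of reads, and Alox15, which other lists also hold. Ccl24, a chemokine for eosinophils, rose from 51.6 and 27.5 to 1913 and 1960 normalized counts (log2 fold change 5.58, standard error 0.093, edgeR adjusted p = 8.60e-52). Msr1, a scavenger receptor, rose from 265 and 264 to 2367 and 2275 (3.14, standard error 0.056, adjusted p = 6.46e-50 from the same test), and Cd163, the receptor for haemoglobin bound to haptoglobin, from 163 and 181 to 967 and 968 (2.49, standard error 0.077, adjusted p = 2.79e-37). Mrc1, the mannose receptor CD206, named after its value was seen, had 9393 and 9172 against 15101 and 15135, a log2 fold change of 0.70 (edgeR adjusted p = 4.40e-38) that was short of the fold threshold. The most abundant genes of the list in counts, both also expressed by ECs, were lower by less than 2-fold. Klf4 had 38290 and 38750 against 26922 and 27884 normalized counts (log2 fold change -0.49), and Tgm2 had 39930 and 39834 against 36849 and 36727 (-0.12, or 0.16 under scaling to endothelial genes).

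Of 16 tested genes of classical activation, the state induced by interferon-gamma and bacterial products, 2 were called higher and 0 were called lower. Their median log2 fold change was 0.12. By edgeR adjusted p alone 8 were higher and 4 lower. Cxcl10, an interferon-induced chemokine, rose from 193 and 195 to 783 and 687 normalized counts (log2 fold change 1.93, standard error 0.083, edgeR adjusted p = 7.67e-30), and Il6 from 379 and 364 to 849 and 769 (1.13, standard error 0.068, adjusted p = 1.95e-22 from the same test). Il1b had 9720 and 9388 against 11392 and 11308 (log2 fold change 0.25). Whether the alternative and classical lists differed from each other was not tested.

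Of 12 tested genes of arginine and polyamine metabolism other than Arg1, 1 was called, and 10 were higher by edgeR adjusted p alone. Gatm, which makes the creatine precursor from arginine, rose from 201 and 183 to 854 and 874 normalized counts (log2 fold change 2.16, standard error 0.077, edgeR adjusted p = 6.03e-34). Odc1, which turns the ornithine made by arginase into putrescine, had 4567 and 4663 against 6617 and 6384 (log2 fold change 0.50, edgeR adjusted p = 2.18e-25), and Oat, which turns ornithine towards proline, had 6351 and 6104 against 6852 and 6622 (0.11, adjusted p = 7.92e-05 from the same test). Arg2, the mitochondrial arginase, had 242 and 221 against 321 and 277 (log2 fold change 0.37, edgeR adjusted p = 6.98e-04). Under scaling to endothelial genes 4 genes of the list were called higher.

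In the list of airway type 2 response genes, 3 of 7 tested were called higher, with a median log2 fold change of 1.00. Over all genes, 5.9% were called higher. Ccl11, the chemokine eotaxin, rose from 17.2 and 14.3 to 77.6 and 79.1 normalized counts (log2 fold change 2.30, standard error 0.25, edgeR adjusted p = 4.94e-12). Alox15, an enzyme that IL-4 and IL-13 induce and that cavity macrophages also express, rose from 339 and 371 to 1474 and 1558 (2.10, standard error 0.059, adjusted p = 2.92e-39 from the same test). Muc5ac, a mucin of goblet cells, had 14.5 and 13.3 against 30.5 and 32.3 (1.16, standard error 0.33, adjusted p = 0.00151 from the same test). It lost its call when any 1 of the 4 libraries was left out and under DESeq2's Wald test (adjusted p = 0.0533). Postn, a matrix protein, had 11425 and 11494 against 23033 and 22764 (log2 fold change 1.00, edgeR adjusted p = 8.01e-48), just short of the fold threshold. Clca1, a goblet cell gene, had means of 419 against 636 (log2 fold change 0.60, edgeR adjusted p = 4.51e-11).

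**Figure D2:**
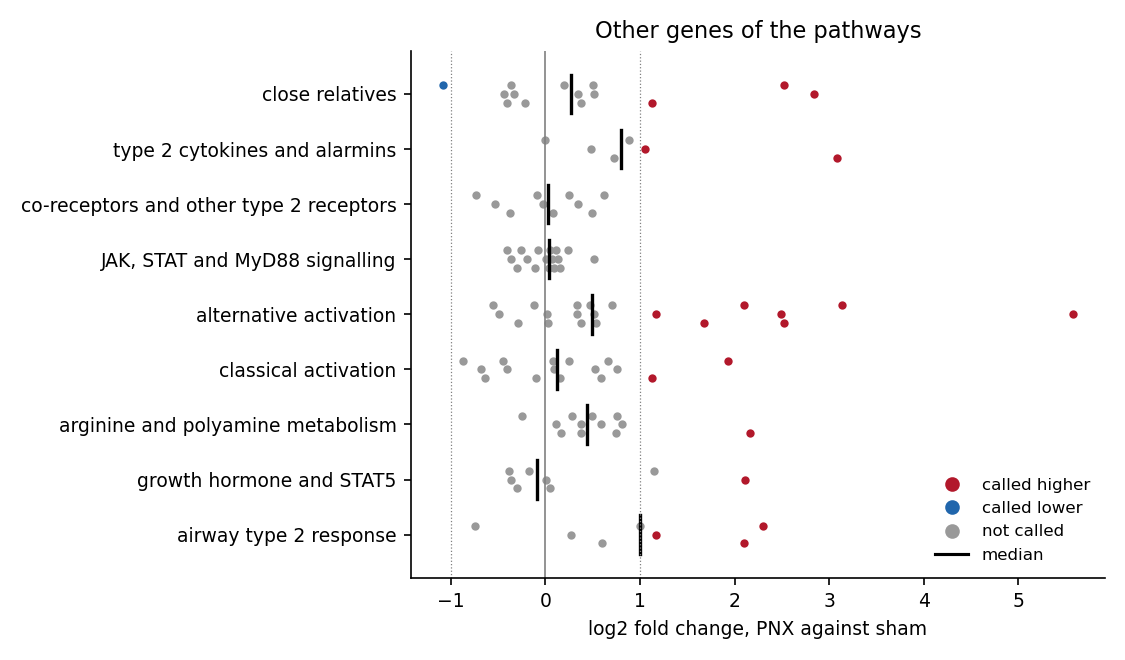
Log2 fold change (PNX against sham) of the tested genes in each pathway list, members left out, with 1 point per gene, red for called higher, blue for called lower and grey for not called; black bars are list medians and dotted lines mark the fold threshold. The alternative activation list has 7 red points up to 5.58 (Ccl24), while the JAK, STAT and MyD88 list lies between -0.41 and 0.51 with none.

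Marker lists of macrophages and of leukocytes in general did not move alike, and their part in the values of the members was not tested. Of 9 macrophage markers, 4 were called higher and 0 lower, and their summed normalized counts went from 163034 to 163624 in sham libraries to between 207948 and 208751 after PNX. The list was uneven, from C1qb, a complement subunit, with 820 and 829 against 6510 and 6473 normalized counts (log2 fold change 2.98, edgeR adjusted p = 7.90e-60) to Mertk, an efferocytosis receptor, with 5442 and 5396 against 4331 and 4286 (-0.33, adjusted p = 4.81e-17). Among 7 alveolar macrophage markers other than Chil3, 1 was called higher and 1 lower, with a median log2 fold change of -0.22. By edgeR adjusted p alone 2 were higher and 5 lower. Sums were 34514 to 35057 in sham and 44280 to 44879 after PNX, opposite in direction to the median. Car4 had the most counts of the list, with means of 20368 in sham and 24019 after PNX, and Marco gained the most. Marco, a scavenger receptor, rose from 1366 and 1340 to 10593 and 10881 (log2 fold change 2.99, edgeR adjusted p = 7.53e-64), and Ear1 fell as given above. Of 8 cavity macrophage markers 6 were called higher, and the sums went from 24664 to 24683 in sham to between 43745 and 44460 after PNX. Saa3, listed there and also an acute phase gene, had the largest change, a log2 fold change of 7.09, and Icam2, also an EC gene, the smallest, -0.08 (0.19 under scaling to endothelial genes). Icam2, with a mean of 21892, made most of the sham sums. Saa3, with means of 98.8 and 13452, made most of the gain. The 5 pan-leukocyte markers had 0 called genes, a median log2 fold change of 0.16, and sums of 37641 to 37659 in sham and 39737 to 40219 after PNX. No marker of these lists was at 0 in any library. 

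Per 1000 counts of the 9 macrophage markers, Arg1 had 0.603 and 0.538 counts in sham libraries and 51.3 and 51.7 after PNX, Retnla had 3.90 and 4.50 against 16.2 and 15.6, and Chil3 had 407 and 406 against 912 and 892. All 3 were thus higher after PNX relative to this list as well. Most of the list's counts were those of Lyz2, so the scaling was repeated with other choices made after the data were seen. Scaled to the list without Lyz2, the log2 fold changes of Arg1, Retnla and Chil3 were 5.68, 1.12 and 0.34. Scaled to C1qa, C1qb and C1qc alone they were 3.92, -0.64 and -1.42, so Retnla and Chil3 were lower after PNX relative to these complement genes while Arg1 stayed higher. Il13ra1 had 15.9 and 14.8 against 15.2 and 15.2 counts per 1000 of the whole list, and its log2 fold change was -0.82 relative to the list without Lyz2 and -2.58 relative to the C1q genes.

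**Figure D3:**
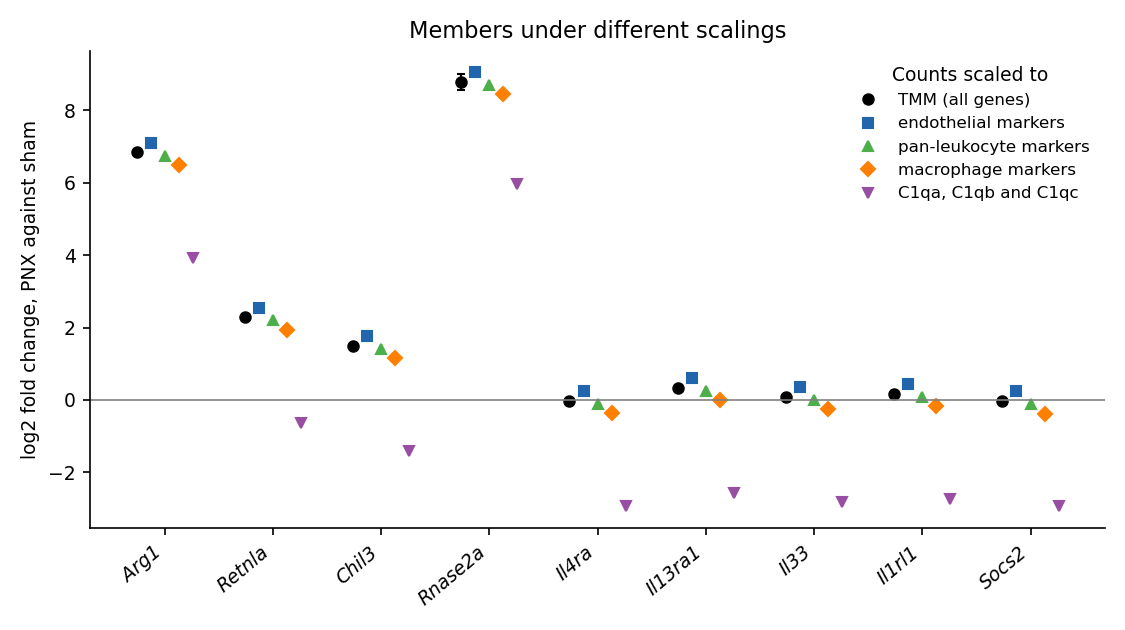
Log2 fold change (PNX against sham) of the 9 members that passed the filter on low counts, with counts scaled by TMM (black, bars are standard errors), to 12 endothelial, 5 pan-leukocyte or 9 macrophage markers, or to C1qa, C1qb and C1qc. Arg1 and Rnase2a lie above 0 under each of these scalings, Retnla and Chil3 lie below 0 only under the last, and the Rnase2a values rest on 3 sham counts.

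Among cells that type 2 cytokines act on, 2 of 6 eosinophil markers were called higher and 0 lower. Ccr3, the eotaxin receptor, rose from 54.4 and 55.0 to 198 and 195 normalized counts (log2 fold change 1.84, edgeR adjusted p = 5.79e-17), while Siglecf, which alveolar macrophages share, had 1934 and 1940 against 1307 and 1329 (-0.56, adjusted p = 1.14e-18). Their sums, which Siglecf dominates, were 2262 to 2309 in sham and 1952 to 1961 after PNX, opposite in direction to the list's median log2 fold change of 0.82. Of 9 mast cell and basophil markers 3 were called higher, led by Tpsb2, a mast cell tryptase, with 3.62 and 2.04 against 150 and 186 normalized counts. Ms4a2, a chain of the high-affinity IgE receptor, had 58.9 and 61.2 against 38.3 and 35.7 (log2 fold change -0.69, edgeR adjusted p = 0.00514). Sums of this list, in which Kit of ECs and other cells has the most counts, were 25824 to 25972 in sham and 21298 to 21610 after PNX, again opposite to the median of 0.63. Of 9 markers of group 2 innate lymphoid and T helper 2 cells, Il5 alone was called, the median log2 fold change was -0.07, and Il17rb, the IL-25 receptor, had 113 and 114 against 71.7 and 64.6 (-0.73). Sums were 8802 to 9249 in sham and 6589 to 6765 after PNX. Hs3st1 had the most counts of this list, with means of 4240 in sham and 2806 after PNX. What part these cells had in the values of Rnase2a, Il33 and Il1rl1 was not tested.

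Cells that can make Il33 did not all move in 1 direction. The 6 alveolar type 2 markers were all lower, with 0 called, a median log2 fold change of -0.64 and sums of 300154 to 301267 in sham and 193525 to 194912 after PNX. Of 6 fibroblast markers 4 were called higher, with sums of 44398 to 44898 and 136116 to 137172. By edgeR adjusted p alone 2 were lower, Pdgfra (log2 fold change -0.23) and Col13a1 (-0.14), which became 0.04 and 0.13 under scaling to endothelial genes. The collagen genes Col1a2 (means of 14036 and 59343) and Col1a1 (9099 and 45932) had the most counts of the list after PNX. Of 5 mesothelial markers 4 were called higher, with sums of 9721 to 9884 and 21116 to 21489. Of 12 endothelial markers 0 were called, 10 were lower by edgeR adjusted p alone, the median log2 fold change was -0.26, and sums went from 591393 to 597606 in sham to between 491463 and 493496 after PNX. The part of these cells in the values of Il33 was not tested. Neutrophils were listed apart from them. Their 5 markers tested, 1 of them called higher, had sums of 9349 to 9587 in sham and 11261 to 11425 after PNX.

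**Figure D4:**
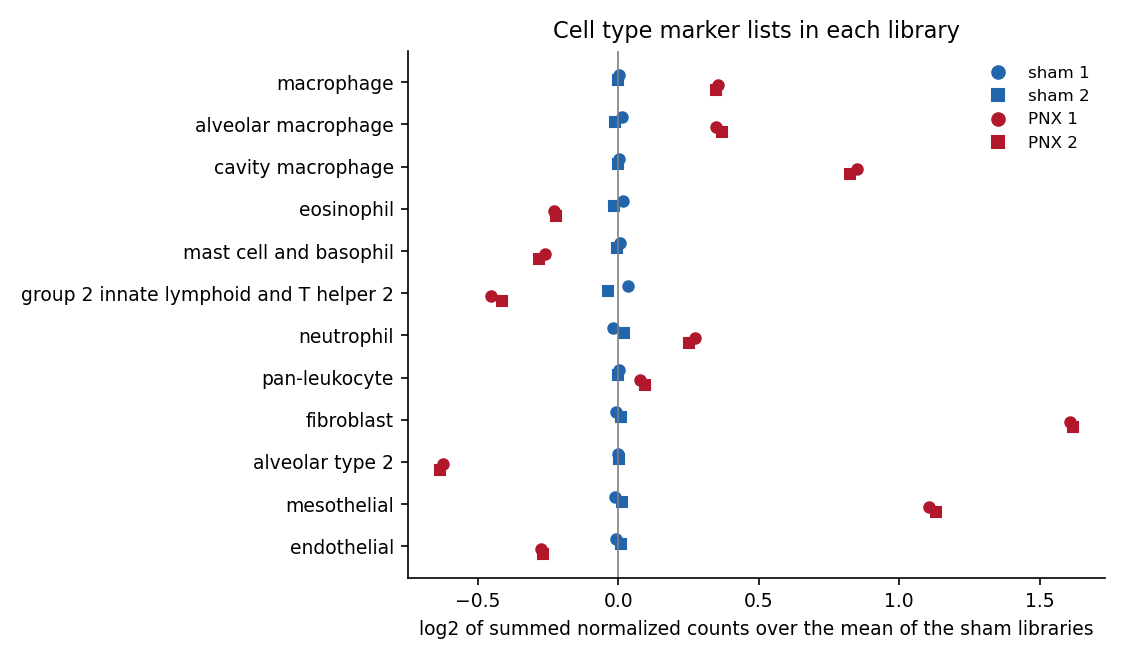
Summed normalized counts of each cell type list in the 4 libraries, as log2 of the ratio to the mean of the sham libraries, with blue for sham and red for PNX, circles for the first and squares for the second library of a group. The fibroblast, mesothelial and cavity macrophage lists lie to the right of sham and the alveolar type 2 list to the left, and libraries of a group lie close together. Sums mostly follow the genes of most counts in a list.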

How the data were processed

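RNA of CD31-selected lung ECs was sequenced in 2 sham and 2 PNX libraries with a stranded mRNA kit as paired ends, per the study's methods. Reads were aligned to mm10, with STAR per the submitters' processing notes, whose version and counting program are not given in the sources used here. The authors deposited whole-number counts on 33068 RefSeq transcripts, without normalization, and beside them FPKM and TPM values scaled to transcript length. The deposited TPM served for levels between genes, and the deposited FPKM was not used. A read on several transcripts of a gene was counted on each, so each of 24063 symbols was represented by its transcript of most counts.

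The analysis of counts used edgeR 4.0.16 in R 4.3.3: filterByExpr, TMM, and the quasi-likelihood F test without covariates, with Benjamini-Hochberg adjustment over 16208 genes. Call thresholds were 1 for the size of the log2 fold change and 0.01 for adjusted p, as in the study's methods. The standard error is the size of the log2 fold change over the square root of F. On simulated counts with 200 of 16208 genes changed 4-fold, 200 were recovered and 0 others called. The changed genes were drawn from those with more counts, and the simulation used the dispersions fitted to these data. It therefore does not cover changes in genes with few counts, or a spread between mice larger than that between these libraries. At these dispersions a 4-fold change lay far beyond the fold threshold, so the outcome was largely set in advance. DESeq2 1.42.0 was an alternative, as were other scalings, filters, a replicate block, summed transcripts and left-out libraries. The mean chi-square per gene was 1.74 between the sham and 1.51 between the PNX libraries, and 128 and 114 across groups. Counting error alone would give about 1, so libraries of a group differed little beyond it. Each library is labelled as a pool of 2 mice, and p-values measure only the spread between these pools. That spread was small, with a median SD of log2 counts per gene of 0.037 in sham and 0.035 in PNX. The p-values therefore do not measure the spread between single mice. How much of the spread between the libraries of a group was biological was not tested. Members and lists were chosen with earlier results of these data known. From each pathway list the text names up to 4 called genes of largest change and the 2 of most counts, relatives of members, and, from the cell type lists described gene by gene, the largest and smallest fold change. Kit, Lyz2, Sftpc, C1qa, C1qc, Car4, Col1a1, Col1a2, Col13a1 and Hs3st1, and genes so described in the text, were named after their values were seen. Siglecf and a macrophage gene of the lists were found under older symbols, and 1 neutrophil marker was not used here. Sequence came from RefSeq (GRCm38.p6) and GENCODE M21. Motifs were searched on both strands.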

Additional observations from a re-analysis of the deposited data

How the results depend on the processing

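Under every alternative that kept all 4 libraries and for which calls were counted, 4 members were beyond the call thresholds and higher, and 0 were lower. In the main fit 5.9% of all genes tested were called higher. Nothing is read from these counts, because the members were chosen on the same contrast. Calls were not counted under scaling to macrophage, pan-leukocyte or C1q genes. The direction of Arg1 and Rnase2a held under all alternatives, with log2 fold changes of Arg1 from 6.76 to 6.93 and of Rnase2a from 8.48 to 9.24 when 1 library was left out. Scaling to C1qa, C1qb and C1qc, added after the data were seen, reversed Retnla (-0.64) and Chil3 (-1.42), because these genes rose by more than either. Scaling to 12 endothelial genes raised the median log2 fold change of all genes by 0.27 and changed the calls from 957 higher and 269 lower to 1357 and 82; it left 0 close relatives and 0 alveolar macrophage markers lower, and gave 4 arginine and polyamine genes, 2 growth hormone and STAT5 genes and 2 markers of group 2 innate lymphoid and T helper 2 cells higher. A mean of at least 50 counts left 160 lower genes, with fewer genes tested, and an adjusted p under 0.05 gave 2 growth hormone and STAT5 genes higher. With 1 library left out, the lone library of a group being assumed to vary like the others, between 1 and 2 type 2 cytokines and between 0 and 1 markers of group 2 innate lymphoid and T helper 2 cells were called higher; the lower counts came without the second post-PNX library. DESeq2's Wald test called 825 genes higher and 188 lower. The libraries share replicate numbers but come from different mice, and deviations of libraries with the same number had a correlation of 0.03 across genes, so the numbers were not taken as pairs. With the replicate block, 957 genes were higher and 272 lower. Of 598 recomputed counts, 588 stayed within 1.5 times the main value, and many of these were 0 in the main fit. Of 144 recomputed log2 fold changes of members, 99 stayed within the SD between libraries of a group. Another 43 moved further, and 2, those of Retnla and Chil3 under scaling to the C1q genes, were reversed. Depth limits Il13ra2 and the sham level of Rnase2a.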
